A study of Mus musculus with 14 samples.

Results

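The transcriptome described here is that of mouse oocytes that carried the study's AGO2 transgene but no Cre recombinase and received no microRNA mimic. The 4 arrays whose labels name them Cre-negative without mimic were taken, out of 14 in the series, and no other group enters any value. The study asked how microRNA activity is suppressed in oocytes, and these 4 samples are its state without Cre and without added microRNA. Their Rosa26 locus holds a myc- and gfp-tagged human Ago2 behind a loxP-flanked stop (lox-stop-lox), and without Zp3-Cre, a Cre driven by the oocyte promoter of Zp3, the stop is not removed. Mice were given 5 units of pregnant mare serum gonadotropin (PMSG) 48 h before injection. Germinal vesicle (GV) oocytes were collected and kept overnight in medium with 2 µM milrinone, an inhibitor of phosphodiesterase 3 that keeps them from resuming meiosis. The labels say that the oocytes were injected but not with what, nor do they give the age or strain of the mice, the number of oocytes, or whether an array stands for its own animals. All values are therefore those of primed, injected and cultured oocytes, and the spread between arrays may be partly technical.

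A GV oocyte is arrested in prophase of the first meiotic division with its nuclear envelope intact. During growth it builds up a store of maternal mRNA, and transcription largely stops when growth ends, so that maturation, fertilisation and the start of development run on that store. Many of its genes are transcribed in hardly any other cell, among them the genes of the zona pellucida, the glycoprotein coat around the egg.

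The defining markers fitted the label on every array. Zp3, a glycoprotein of the zona, gave a raw intensity of 1009, 1128, 1174 and 1013 on arrays 1 to 4, and Gdf9, a growth factor the oocyte sends to its granulosa cells, gave 1229, 1439, 1485 and 1460. Ooep, which organises the subcortical maternal complex needed for the first cleavages, gave 1055, 1334, 1545 and 1246, and Nlrp5, another part of that complex, gave 370, 387, 399 and 293. All 4 markers were detected on 4 of 4 arrays, each far above the lowest detected raw intensity of an array, 81.1 to 83.9. Ooep and Gdf9 were lowest on array 1, while Nlrp5 was lowest on array 4, so no single array was low for all markers.

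Promoter windows of 5 oocyte genes whose transcripts were detected on all 4 arrays are shown for the letters they hold next to the start site. They are the 250 bases before the transcript start in RefSeq (build GRCm38.p6), read 5′ to 3′ on the strand of the gene. Capitals mark the E-box letters CANNTG, which read the same on both strands and which the oocyte factor FIGLA is known to bind in zona gene promoters, and TATAA on the gene's own strand between 45 and 15 bases before the start. Zp3 lies at chr5:135979855-135980104 (+), and its window held 3 E-box matches, 181, 134 and 55 bases before the start, and a TATAA match beginning 29 bases before it. This is also the gene whose promoter drives Cre in the study's Cre-positive oocytes. Bmp15, a growth factor paired with Gdf9, lies at chrX:6320725-6320974 (-) and held 1 E-box match. Oosp1, an oocyte-secreted protein, lies at chr19:11691052-11691301 (-) and held 5, and Ooep lies at chr9:78378589-78378838 (-) and held 1. Dnmt1, the maintenance DNA methyltransferase, is shown at 2 of its 3 listed starts because the oocyte is known to use a start of its own. The window farther upstream, chr9:20959889-20960138 (-), held no E-box match and 2 CpG pairs, and the window nearest the body of the gene, chr9:20952624-20952873 (-), held 1 E-box match and 26 CpG pairs. The array does not tell which start gave the Dnmt1 signal.
Zp3: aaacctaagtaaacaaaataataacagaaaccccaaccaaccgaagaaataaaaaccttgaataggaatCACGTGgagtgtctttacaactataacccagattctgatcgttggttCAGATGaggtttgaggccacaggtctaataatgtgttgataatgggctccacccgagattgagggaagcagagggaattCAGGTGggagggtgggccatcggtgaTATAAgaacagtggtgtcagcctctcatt
Bmp15: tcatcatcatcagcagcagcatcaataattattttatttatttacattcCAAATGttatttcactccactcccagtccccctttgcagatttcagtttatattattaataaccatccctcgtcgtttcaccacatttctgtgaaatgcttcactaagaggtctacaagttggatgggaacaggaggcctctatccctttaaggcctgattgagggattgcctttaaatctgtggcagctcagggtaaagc
Oosp1: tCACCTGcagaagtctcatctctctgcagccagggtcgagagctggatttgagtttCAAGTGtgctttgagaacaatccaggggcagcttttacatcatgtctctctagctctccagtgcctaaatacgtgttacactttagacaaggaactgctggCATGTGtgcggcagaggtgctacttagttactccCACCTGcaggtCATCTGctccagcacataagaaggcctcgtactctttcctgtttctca
Ooep: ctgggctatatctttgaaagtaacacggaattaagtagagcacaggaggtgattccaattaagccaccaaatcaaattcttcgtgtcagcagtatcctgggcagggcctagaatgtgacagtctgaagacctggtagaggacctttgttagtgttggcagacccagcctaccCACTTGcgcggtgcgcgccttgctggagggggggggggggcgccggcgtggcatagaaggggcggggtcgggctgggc
Dnmt1 upstream: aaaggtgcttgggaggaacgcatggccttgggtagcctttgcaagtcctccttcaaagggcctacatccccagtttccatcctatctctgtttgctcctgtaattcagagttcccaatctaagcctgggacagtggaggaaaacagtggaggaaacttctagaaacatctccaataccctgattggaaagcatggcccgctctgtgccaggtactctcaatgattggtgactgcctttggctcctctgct
Dnmt1 downstream: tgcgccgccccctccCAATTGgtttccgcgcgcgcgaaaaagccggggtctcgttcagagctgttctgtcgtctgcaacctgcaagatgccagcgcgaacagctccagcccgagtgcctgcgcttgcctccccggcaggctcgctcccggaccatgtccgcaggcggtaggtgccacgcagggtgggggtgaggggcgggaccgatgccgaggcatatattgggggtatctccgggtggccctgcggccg

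Over larger sets, CpG pairs and base composition were scored from 250 bases before to 50 bases after the first listed start. The E-box, TAATTG and TAATTA letters were searched only in the 250 bases before it. Of 7837 genes detected on all 4 arrays, 6468 had a window, with a median of 21 CpG pairs, and 83.0% held 10 or more. Genes with no detected probe had a median of 5 CpG pairs, and 36.2% held 10 or more (4632 windows of 5923 genes). The 5 lists of oocyte genes described further on did not follow this order: their 48 windows had a median of 3 CpG pairs although 55 of the 58 measured genes were detected on all arrays, and 12 of them held 10 or more. An E-box match stood in 83.3% of these 48 windows, in 57.2% of those of all detected genes, in 66.5% of those of undetected genes and in 66.0% of the 27025 windows of the whole table. TATAA in the stated place stood in 7 of the 48 windows (14.6%), against 2.41% for detected genes, 7.66% for undetected genes and 4.23% of the table. The letters TAATTG or TAATTA on either strand, bound by the homeodomain factor NOBOX, stood in 16.7% of the windows of oocyte genes, 7.05% of detected genes, 14.4% of undetected genes and 11.5% of the table. These shares were not tested, the sets differ in base composition (a median of 49.2% G and C in the windows of oocyte genes and 60.7% in those of detected genes), and a match is a description of letters, not of binding. Among detected genes the CpG median varied little with signal, from 19 for the 1968 genes with the lowest signal to 22 for the 1959 with the highest.

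The arrays were alike in depth of signal. Raw intensity had a median of 82.0 to 84.8, a mean of 137 to 145 and a maximum of 5603 to 6708 per array. The detection p-value deposited for each probe was under 0.05 for 13314 to 13619 of 25697 probes, that is 51.8% to 53.0%. No pair of arrays held identical values. Arrays carry no counts, so precision is limited by the number of arrays and by the signal over background.

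Signal is given from here on as log2 intensity after background correction and quantile normalization over the 4 arrays. Each gene is represented by its brightest probe, and a gene counts as detected on an array when that probe's detection p is under 0.05. By this rule 7837 of 16593 genes (47.2%) were detected on all 4 arrays. Another 2801 (16.9%) were detected on 1 to 3 arrays, of which 1470 on 1, 740 on 2 and 591 on 3. The brightest probe was detected on no array for 5955 genes, and for 5923 (35.7%) no probe was. The lowest signal of a detected probe was 4.35 to 4.37 per array. Genes detected on all arrays ran from 4.40 to 12.57 with a median of 6.46, and undetected genes ended at 4.33 with a median of 4.19. The mean signal of genes detected on some arrays lay on both sides of the lowest detected signal. Mt1, detected on 1 array, had a mean of 4.21, and Fshr, detected on 3, had a mean of 4.81.

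Close to that edge, the 5 dimmest genes detected on all arrays were 2510039O18Rik, Sgpl1, Ppm1k, Mef2d and Ccdc33, at 4.40 to 4.42. The 5 brightest that were detected on none were Fam71d, 4930548H24Rik, Smyd3, Olfr64 and Nudcd1, at 4.32 to 4.33. In raw intensity the 2 sets overlapped, at 81.1 to 85.9 and 79.1 to 83.6 over the arrays, because each array has its own detection line.

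**Figure D1:**
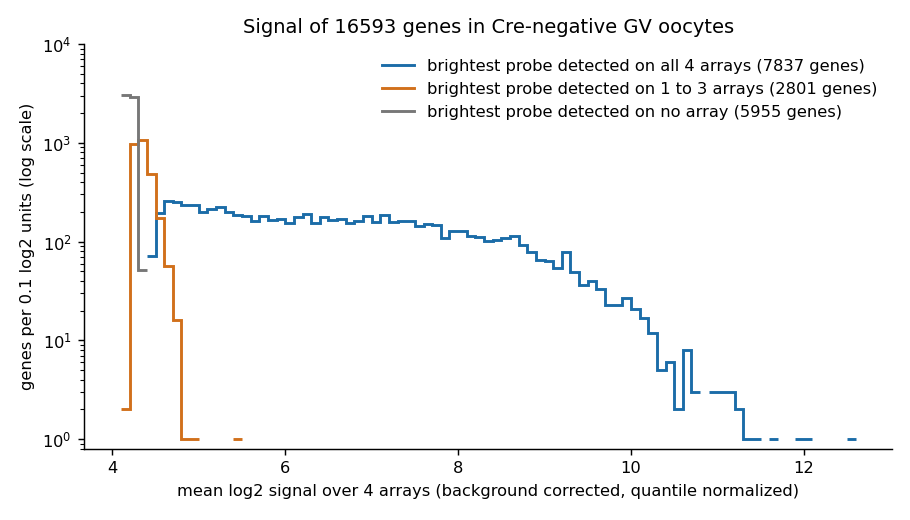
Number of genes (log scale) per 0.1 log2 units of mean signal over 4 arrays, with a line for genes whose brightest probe was detected on all 4 arrays (7837), on 1 to 3 (2801) and on none (5955). The undetected genes form a narrow peak that ends at 4.33, and the detected genes spread from 4.40 to 12.57.

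Detected signal was broad and ended in a thin tail. The middle of the distribution lay between 5.33 (25th percentile) and 7.66 (75th percentile), the 95th percentile was 9.20 and the 99th 10.06. There were 4711 genes at 6 or more, 1530 at 8 or more, 91 at 10 or more and 14 at 11 or more. On the linear background-corrected scale the 10 brightest genes held 2.60% ± 0.0482 (SD, n = 4) of the summed signal. The 100 brightest held 11.8% ± 0.12, the 1000 brightest 49.8% ± 0.152, and 1008 genes together made up 50%. Each share is that of the genes brightest in the mean of the arrays. Its SD is over the shares held by each array's own brightest genes. No small set of genes dominated the signal on any array, since the share of the 100 brightest lay between 11.7% and 12%. Without background correction that share was 6.12%, and in the deposited normalized values 6.05%.

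The order of genes by signal is an order of probes, since probes of the same gene also gave unequal signal. Of 1724 genes with several probes that were all detected on all arrays, the brightest and dimmest probe lay a median of 1.12 log2 units apart, and 53.7% (925) lay more than 1 apart. The ranks below therefore describe these probes and give no transcript abundance.

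The brightest probe on every array was that of E330034G19Rik, for which no function is given here, with raw intensities of 6065, 5603, 6708 and 6220. Ctcfl, the germ cell paralogue of the insulator protein CTCF, followed with 4248, 4164, 4372 and 3997. Dnmt1 gave 4225, 4029, 3887 and 3769, and Tubb2b, a beta tubulin, gave 3206, 3345, 3445 and 3307. Each of these probes held the same rank on all 4 arrays, so that quantile normalization set their spread to exactly 0. Scaled to a common median in its place, their SD was 0.103 for E330034G19Rik, 0.0467 for Ctcfl, 0.0664 for Dnmt1 and 0.0471 for Tubb2b. Beta tubulin genes are near-identical in places, and the signal at Tubb2b may include transcripts of its relatives.

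The next 6 ranks held genes of unlike roles. Rchy1, an E3 ubiquitin ligase of p53, stood at 11.48 ± 0.109 (SD, n = 4), and Chek1, the checkpoint kinase of damaged or unreplicated DNA, at 11.36 ± 0.0528. Tle6, a part of the subcortical maternal complex, stood at 11.29 ± 0.185, and the ribosomal protein gene Rpl23 at 11.22 ± 0.159. Then came Mark2, a kinase that loosens microtubule-associated proteins from microtubules, at 11.19 ± 0.0948, and Bmp15 at 11.16 ± 0.171. Neighbours among these 6 overlapped in their values over the arrays. Of 29 pairs of neighbours among the 30 brightest genes, only 2 did not overlap in the values scaled to a common median: E330034G19Rik over Ctcfl, and Dnmt1 over Tubb2b.

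The other genes of the 30 brightest are given with their known roles, which were not counted or tested as groups. Uhrf1, which brings DNMT1 to newly copied DNA, stood at 10.94 ± 0.0826, and Ezhip, an inhibitor of the PRC2 histone methyltransferase, at 10.93 ± 0.0648. Mis18a, which prepares centromeres for new CENP-A, Terf2ip, the telomere protein RAP1, and Trp53bp1, a mediator of double-strand break repair, were among them, as were Ube2t, the E2 enzyme of the Fanconi anaemia pathway, and Morf4l2, of the NuA4 histone acetyltransferase family. Also among them were Dcp1a of the decapping complex, G3bp2 of stress granules, Gemin2 of the SMN complex and Zcchc8 of the nuclear exosome targeting complex. Oas1d and Obox1 belong to gene families used in oocytes, and Nup93 is a nuclear pore scaffold. The list was completed by Smim14, Oser1, Chic2, AA792892, Sypl and Ubb-ps. The last is annotated as a pseudogene of the ubiquitin gene Ubb, and the signal of such a near-identical copy cannot be told apart from that of its parent gene. Some of the 30 stand on 1 bright probe. Terf2ip gave 10.64, 4.76, 4.37 and 4.33 by its probes, Gemin2 gave 10.74 and 4.57, and Rpl23 gave 11.22, 8.38, 4.64 and 4.56. The probes of others lay closer, such as Chic2 at 10.78 and 10.10 and Dcp1a at 10.54 to 8.52.

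Membership of the top was stable between arrays but not fixed. Of the 30 brightest genes of each array, 22 were shared by all 4 and 39 appeared in at least 1. Of the 100 brightest, 72 were shared by all 4 out of 135.

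**Figure D2:**
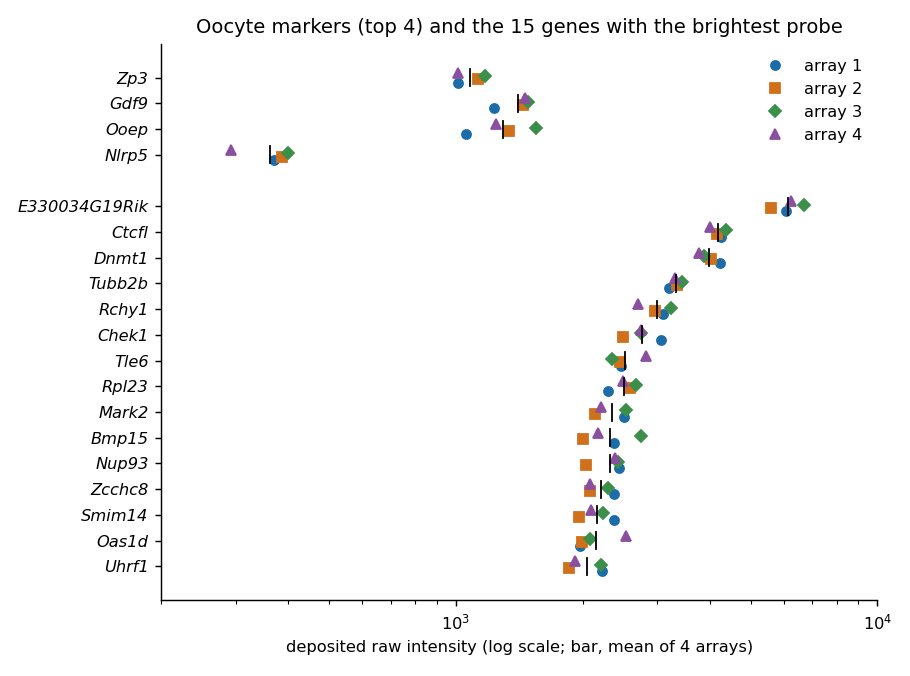
Deposited raw intensity (log scale) of Zp3, Gdf9, Ooep and Nlrp5 and of the 15 genes with the brightest probe, with a symbol for each of the 4 arrays and a bar for their mean. E330034G19Rik stands apart at 5603 to 6708, and most genes from Rchy1 down overlap with their neighbours.

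Genes known mainly from oocytes were for the most part detected. Over 5 lists (zona and egg surface, subcortical maternal complex, dialogue with granulosa cells, oocyte transcription factors and oocyte gene families) 55 of 58 measured genes were detected on all 4 arrays, or 94.8%, beside 47.2% of all genes. Their median signal was 8.27, beside 4.44 for all genes. The lists were drawn up with earlier results of these data known, so the counts describe the lists and do not test them.

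All 7 genes of the zona and the egg surface were detected on all arrays. Zp3 stood at 9.98 ± 0.106, rank 94, and Zp1, which cross-links zona filaments, at 9.87 ± 0.0524. Astl, the ovastacin protease that cleaves ZP2 after fertilisation, stood at 9.06 ± 0.119. Zp2, which sperm bind, gave raw values of 153, 178, 149 and 162, or 6.61 ± 0.235. Each of the 3 zona genes had 1 probe, so their order says nothing about their mRNAs. Of the subcortical maternal complex and its partners all 7 were detected on all arrays. They ran from 4.71 to 11.29 with Tle6, Padi6 (10.29 ± 0.0352), Ooep (10.24 ± 0.229) and Zbed3 (9.03 ± 0.316) at the top. Nlrp5 stood at 8.21 ± 0.208, and its 3 probes gave 8.21, 8.10 and 7.88.

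All 8 genes of the oocyte's signals to granulosa cells were detected on all arrays. Bmp15 gave raw values of 2374, 1999, 2751 and 2171, and Gdf9 stood at 10.37 ± 0.159, rank 37. The oocyte-secreted proteins Oosp1 and Oosp2 stood at 10.35 ± 0.159 and 10.12 ± 0.129. Bmp15 was lowest on array 2 and highest on array 3, as was the brightest gene, E330034G19Rik. Of the transcription factors 10 of 12 were detected on all arrays. The homeobox genes Obox1 (10.59 ± 0.0127), Lhx8 (7.69 ± 0.11) and Nobox (7.42 ± 0.126) led with Obox2 (7.20 ± 0.208), and Tbpl2, the oocyte's TBP paralogue, and Obox6 were each detected on 1 array.

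The oocyte gene families arose by local duplication, so a probe for one member may catch its neighbours, and values within a family are uncertain. Of 24 measured members 23 were detected on all arrays, and Pramel6 on none. Oas1d, of the oligoadenylate synthetase family, stood at 11.01 ± 0.186, and the F-box genes Fbxw24 and Fbxw15 at 10.24 ± 0.0973 and 10.19 ± 0.0847. Omt2b stood at 10.17 ± 0.289. Oas1d was highest on array 4, at 2531 against 1973 to 2080 on the others.

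**Figure D3:**
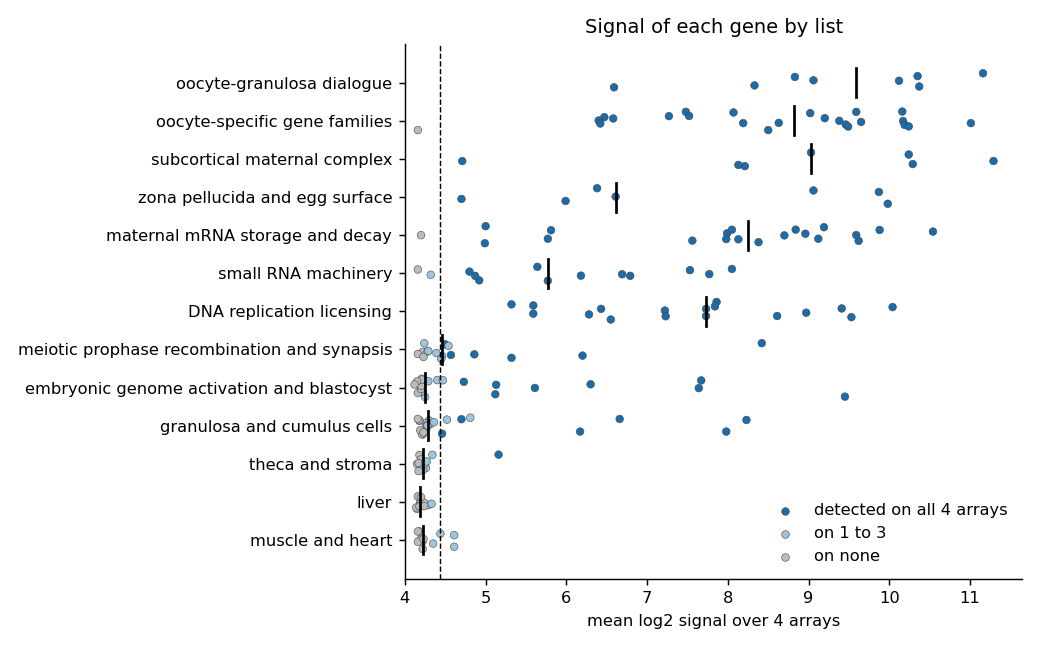
Mean log2 signal over 4 arrays for each gene of 13 lists, coloured by the number of arrays on which it was detected, with a bar at the list median and a dashed line at the median of all genes (4.44). Lists of oocyte genes lie mostly above 6, and lists of other cells and tissues lie mostly at the floor near 4.2.

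Chromatin and DNA methylation factors supplied by the mother were detected without exception, 20 of 20 on all arrays, beside 47.2% of all genes. After Dnmt1 and Uhrf1 came Kdm1b, the H3K4 demethylase needed for maternal imprints, at 10.46 ± 0.117, and Dppa3 (Stella), which protects the maternal genome from demethylation, at 9.82 ± 0.14. Of histone and nucleoplasmin variants 10 of 11 were detected on all arrays, beside 47.2% of all genes. Npm1 (9.76 ± 0.26) and H1f8, the oocyte linker histone (9.50 ± 0.224), led with the H3.3 genes H3f3b (9.49 ± 0.0587) and H3f3a (8.47 ± 0.213), and the somatic linker histone gene H1f4 was detected on none.

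Factors that store, translate or remove maternal mRNA were detected on all arrays for 19 of 20 genes, beside 47.2% of all genes. Dcp1a, of the decapping complex, stood at 10.54 ± 0.11, and Cnot6l, a deadenylase of the CCR4-NOT complex, at 9.88 ± 0.127. Ybx2 (MSY2), which packs stored mRNA, gave raw values of 891, 844, 827 and 826, or 9.62 ± 0.0816. Eif4e1b, an oocyte cap-binding protein, stood at 9.59 ± 0.306, with raw values of 673 on array 1 and 1030 on array 2. Tut4, a terminal uridylyl transferase, was detected on no array.

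In the machinery of small RNAs, which the study is about, 11 of 13 genes were detected on all arrays, beside 47.2% of all genes. None was among the 1000 brightest of 16593 genes, which for so short a list is near the share of all genes. The list's median signal was 5.77. Tarbp2, a partner of Dicer, stood at 8.05 ± 0.0503, Drosha, which cuts primary microRNAs, at 7.77 ± 0.0873, and Dicer1 at 7.53 ± 0.0725. Tnrc6b, a GW182 protein that links Argonautes to deadenylation, stood at 6.79 ± 0.218. The mouse Ago2 probe gave raw values of 95.3, 91.9, 98.2 and 86.0, or 4.92 ± 0.191. It was detected on all arrays but within 1 log2 unit of the floor. By the brightest of its 4 probes, Ago3 stood at 6.18 ± 0.21 and was detected on all arrays, with raw values of 145, 138, 142 and 117. Ago1 was detected on none, with 75.5, 76.5, 80.1 and 74.7, and Ago4 on 1 array. Ago2 is named because the transgene encodes its human form, which was not measured here. Of piRNA pathway genes 10 of 12 were detected on all arrays, beside 47.2% of all genes. They were led by Asz1 (9.77 ± 0.177), Piwil1 (8.38 ± 0.142), Tdrd1 (8.15 ± 0.053) and Ddx4, the germ cell helicase VASA (7.14 ± 0.174). Tdrd6 was detected on 3 arrays and Piwil4 on none.

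The genes that hold the meiotic arrest and end it were all detected on all arrays, 21 of 21, beside 47.2% of all genes. Plk1, a kinase of mitotic and meiotic entry, stood at 9.96 ± 0.0847, and Map2k1 at 8.69 ± 0.176. Mos, the germ cell kinase upstream of MAP kinase, gave raw values of 461, 410, 483 and 479, or 8.63 ± 0.12. Fzr1 (CDH1), which keeps the anaphase-promoting complex active in prophase arrest, stood at 8.55 ± 0.104. The SDs of these 4 genes were 0.0847 to 0.176, and the dimmest of the 21, Ccnb2, lay at 4.48 ± 0.162, within its spread of the detection line.

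Of genes of the spindle, its checkpoint and cohesion 27 of 29 were detected on all arrays, beside 47.2% of all genes. Birc5 (survivin) stood at 9.94 ± 0.0191, Aurka at 9.57 ± 0.0903, Bub1b at 9.12 ± 0.0477 and the cohesin subunit Smc3 at 9.02 ± 0.157. Rec8, the meiotic cohesin that holds chromosomes together through the arrest, was detected on no array, and Cenpc1 on 1. Genes of recombination and synapsis, whose steps end before birth in mouse oocytes, were detected on all arrays for 6 of 16 (37.5%), beside 47.2% of all genes. Syce2 of the synaptonemal complex stood out at 8.42 ± 0.0657, followed by Msh4 (6.20 ± 0.181), Tex12 (5.32 ± 0.226) and Sycp1 (4.86 ± 0.14). Spo11, which cuts DNA to start recombination, Stra8 and Mei4 were detected on none, and Hormad1, Hormad2, Dmc1, Mlh3, Msh5, Prdm9 and Mei1 on 1 to 3 arrays, all at or below 4.54.

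All 17 genes that license DNA replication were detected on all arrays, beside 47.2% of all genes. Their median signal was 7.73, although the arrested oocyte does not copy its DNA. Mcm4 stood at 10.04 ± 0.0806, Orc5 at 9.53 ± 0.0792, and the helicase subunits Mcm5 and Mcm6 at 9.41 ± 0.105 and 8.97 ± 0.0757. Of genes for the egg's actin and calcium signalling 12 of 18 (66.7%) were detected on all arrays, beside 47.2% of all genes. They were led by Actr3 of the ARP2/3 actin nucleator (8.72 ± 0.0641), the formin Fmn2 that moves the meiotic spindle (8.58 ± 0.168), Camk2g, the kinase of egg activation (8.32 ± 0.0599), and Spire1 (8.22 ± 0.0833). Trpv3 was detected on 2 arrays, and Msn, Itpr3, Stim1 and Camk2d were among those detected on none.

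Genes of energy supply were counted by pathway. Respiratory chain genes were detected on all arrays for 71 of 75, beside 47.2% of all genes. They were led by Cox7c (9.82 ± 0.0361), Atp5j2 (9.81 ± 0.138), Atp5e (9.63 ± 0.0939) and Ndufb8 (9.43 ± 0.0971). The members not detected on all arrays were Cox7a1, on 1 array, and Cox7b2, Cox8b and Uqcrq, on none. Cox7a1 and Cox8b are the forms of heart and skeletal muscle and Cox7b2 is a testis form. The list of pyruvate and glucose use reached 24 of 38 (63.2%), beside 47.2% of all genes. Pkm (8.64 ± 0.145), the glucose transporter Slc2a1 (8.29 ± 0.0616), Dld of the pyruvate dehydrogenase complex (8.01 ± 0.181) and Tpi1 (7.82 ± 0.0811) led it. The hexokinases Hk1 and Hk3, Aldoc and Gapdhs were among the 12 members detected on none. Pfkp was detected on 3 arrays and Slc16a3 on 1. Mouse oocytes are known to live on pyruvate and to use little glucose. Gapdhs is the sperm form of its enzyme and Aldoc the brain form.

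Cytosolic ribosomal protein genes were detected on all arrays for 56 of 63, beside 47.2% of all genes. Of the 63, 24 were among the 1000 brightest of 16593 genes. The name pattern that defines the list also takes in paralogues such as Rpl3l, which skeletal muscle uses and which was detected on none. Rpl23, Rpl39 (10.16 ± 0.0667), Rpl41 (10.13 ± 0.129) and Rplp1 (9.93 ± 0.143) led. Rpl6 and Rplp2, parts of every ribosome, were detected on no array, and Rpl14, Rpl21, Rps15a and Rpsa on 1 or 2. A probe without a detection call is accordingly not read here as an absent transcript. Reference genes used to normalize other assays were detected on all arrays for 11 of 12, beside 47.2% of all genes. Actb gave 10.34 ± 0.162, Ywhaz 10.09 ± 0.0612, Tubb5 9.65 ± 0.0614 and Tuba1b 8.79 ± 0.0871, and Gusb was detected on no array.

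Genes of stress and of the response to handling were detected on all arrays for 10 of 21 (47.6%), close to the 47.2% of all genes. The chaperone genes Dnajb1 (9.48 ± 0.127), Hspa8 (9.06 ± 0.183) and Hspa5 (8.67 ± 0.123) and Mdm2, the p53 ubiquitin ligase (9.45 ± 0.0902), led. The immediate early genes Fos, Jun and Ier2, and Atf3, were among the 7 members detected on none. Cdkn1a, the p53 target p21, was detected on 3 arrays with raw values of 84.1, 81.5, 81.5 and 96.7, so that array 4 stood above the others. Hspa1a, Gadd45g and Mt1 were detected on 1 or 2 arrays.

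Genes of embryonic genome activation and the blastocyst were detected on all arrays for 8 of 24 (33.3%), beside 47.2% of all genes. Tfap2c, a factor of the trophectoderm, stood at 9.45 ± 0.0327, Tcstv1 and Tcstv3 at 7.67 ± 0.112 and 7.64 ± 0.0847, and Klf4 at 6.30 ± 0.11. The 2-cell genes Zscan4c, Zfp352, Tdpoz3 and Usp17la were among the 12 members detected on no array. Tdpoz1, Tdpoz4, Gata6 and Krt8 were detected on 1 to 3. Of imprinted genes 10 of 17 (58.8%) were detected on all arrays, beside 47.2% of all genes. Igf2r, active on the maternal copy, stood at 8.96 ± 0.0647 and Grb10 at 7.61 ± 0.172. Mest and Snrpn, which most tissues read from the paternal copy, stood at 7.22 ± 0.182 and 7.07 ± 0.23, in a cell whose maternal imprints are set during its growth. Nnat, Dlk1, Sgce and Ascl2 were detected on none, and Igf2, Ndn and Magel2 on 1 or 2 arrays.

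**Figure D4:**
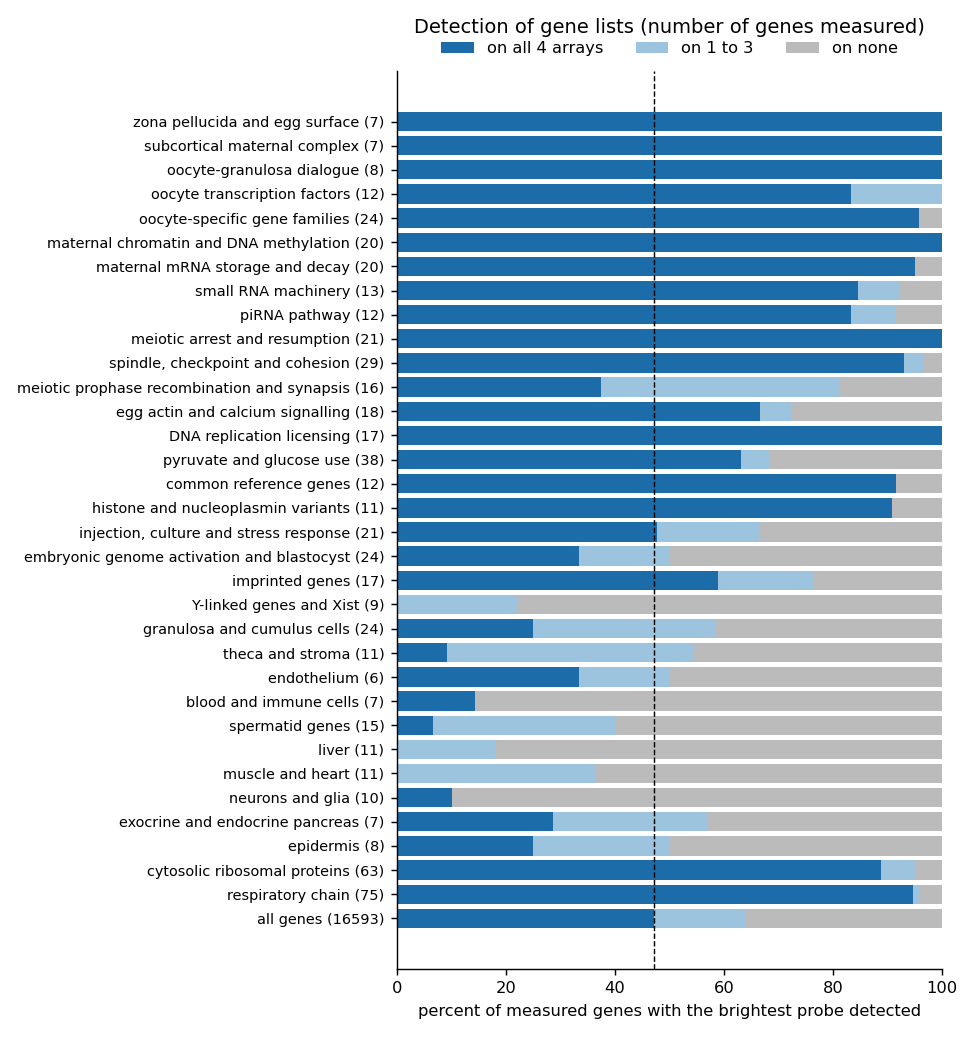
Percent of the measured genes of each of 33 lists whose brightest probe was detected on all 4 arrays, on 1 to 3 and on none, with the number of genes in brackets and a dashed line at the 47.2% of all genes. Lists of maternal chromatin, meiotic arrest and replication reach 100%, and lists of liver, of muscle and of Y-linked genes with Xist have no gene on all 4.

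Genes that female oocytes lack or silence served as a floor. None of 9 measured genes, 8 Y-linked genes and Xist, was detected on all arrays, beside 47.2% of all genes. Xist, the RNA that silences an X chromosome in female somatic cells, gave raw values of 81.5, 78.3, 82.5 and 76.4 and was detected on none. Growing oocytes are known to keep both X chromosomes active. The Y-linked genes Sry, Eif2s3y, Kdm5d and Zfy2 were detected on none. Zfy1 was detected on 1 array, and Uty on 3, with raw values of 81.9, 81.7, 86.7 and 83.6. The signal of Uty, 4.43 ± 0.123, lay just above the floor in cells that have no Y chromosome.

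Over 6 lists of tissues that are not in the sample, 6 of 62 genes (9.68%) were detected on all arrays, 15 on 1 to 3 and 41 on none. Of all genes 47.2% were detected on all arrays and 16.9% on 1 to 3. No gene of liver or of muscle and heart reached all arrays, and Alb, Ttr and Apoa2 of liver and Acta1, Ckm, Myh4 and Myh7 of muscle were detected on none. The 6 were Odf1 of spermatids (4.64 ± 0.0811), Mbp of myelin (4.76 ± 0.108), Cpa1 and Cela1 of the pancreas (8.60 ± 0.132 and 5.19 ± 0.0621), and Krt10 and Trp63 of epidermis (7.25 ± 0.159 and 6.12 ± 0.0525). Cpa1 gave raw values of 441, 401, 500 and 471, while the pancreas genes Gcg, Prss2 and Ctrb1 were detected on none. Krt10 gave 198, 212, 222 and 231 while Krt5, Krt1, Lor and Ivl were detected on none. Trp63 encodes p63, whose TAp63 form is known in the resting mouse oocyte as a guardian of its DNA. Among genes on 1 to 3 arrays, Myh1, Myl2 and Mylpf of muscle reached 3.

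Follicle cells adhere to the oocyte, so their markers were examined next. In bulk RNA, fewer cells of a type and less RNA per cell cannot be told apart. Of 24 measured genes of granulosa and cumulus cells 6 were detected on all arrays, 8 on 1 to 3 and 10 on none, beside 47.2% of all genes on all arrays and 16.9% on 1 to 3. The 6 were Bmpr1b (8.23 ± 0.0489), Esr2 (7.98 ± 0.0638), Nr5a2 (6.66 ± 0.0506), Gja1 (6.17 ± 0.389), Kitl and Wt1, the last 2 at 4.70 and 4.46. Foxl2, Inha, Inhbb and Nr5a1, which granulosa cells carry throughout, were detected on none, and Amh on 2. Fshr, the receptor for follicle-stimulating hormone, was detected on 3 arrays with raw values of 92.5, 98.9, 91.6 and 80.9. Gja1 (connexin 43) gave 174 on array 3 against 123 to 125 on the others, and its SD of 0.389 was above the 0.28 that 95% of detected genes stay under. Ptgs2 and Inhba, of the same list, were detected on 1 array each.

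Markers of other ovarian cells came from shorter lists, so their counts are not compared with those of granulosa and cumulus cells. Of 11 genes of theca and stroma Acta2 was detected on all arrays (5.16 ± 0.124), and Cyp17a1, Col1a1, Col1a2 and Col3a1 on none. Pecam1 (6.62 ± 0.124) and Tek (5.43 ± 0.164) of 6 endothelial genes were detected on all arrays, while Cdh5, Kdr and Vwf were on none. Laptm5, of 7 genes of blood and immune cells, gave 6.80 ± 0.236, while Ptprc (CD45), Itgam, Lyz2 and Hba-a1 were on none. Over these 4 lists 10 of 48 genes (20.8%) were detected on all arrays, beside 47.2% of all genes. Their summed background-corrected signal was 982 to 1102 per array. The part of follicle or blood cells in the values of Gja1, Pecam1, Tek and Laptm5 was not tested.

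The arrays differed little from each other. Pearson's r across all 25697 probes was 0.9909 to 0.9929 over the 6 pairs, and Spearman's rho 0.8892 to 0.8979. Both include the 9746 probes detected on no array. Among genes detected on all arrays, each by its brightest probe, the median rho was 0.9839. These values are across probes or genes within pairs of samples, and neither probes nor genes are independent replicates. Between 0 and 6 detected genes per pair differed by more than 1 log2 unit.

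The SD over the 4 arrays of a detected gene had a median of 0.136 log2 units, and 95% of genes stayed under 0.28. Without background correction the median was 0.0749, and in the deposited normalized values 0.0734. Taken back from log2, the median SD of 0.136 corresponds to a change of 9.91%, with the offset included. No coefficient of variation was computed on linear values. Spread fell with signal above the lowest range: of 10 equal groups of genes by signal, the lowest had a median SD of 0.138, the third (5.16 to 5.54) 0.175 and the highest 0.105. Background correction with an offset compresses differences near the floor by construction. Scaling to a common median in place of quantile normalization gave 0.138, 0.175 and 0.109 for the same groups.

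**Figure D5:**
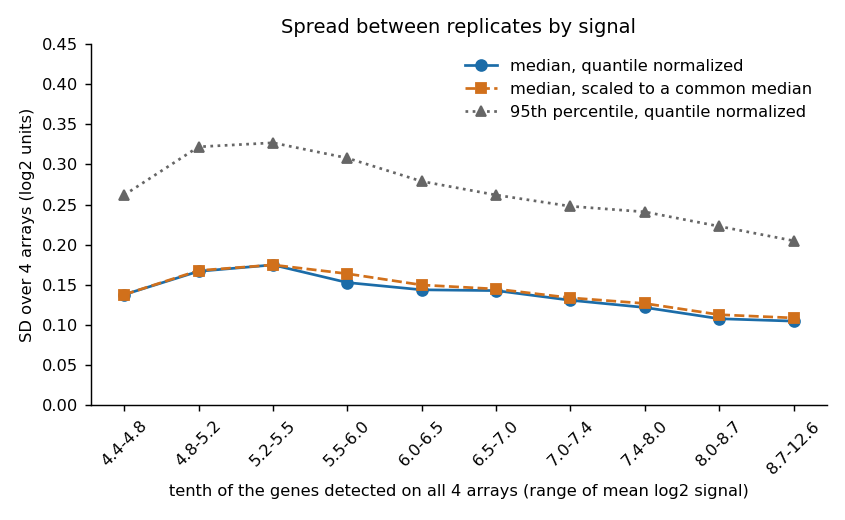
SD over the 4 arrays (log2 units) for 10 equal groups of the genes detected on all arrays, in order of mean signal, as the median under 2 normalizations and the 95th percentile. The median peaks at 0.175 in the third group and ends at 0.105.

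Only 4 detected genes had an SD over 0.5, and 15 (0.191%) spanned more than 1 log2 unit. Lasp1, an actin-binding LIM protein, was the least steady, with raw values of 113, 95.6, 158 and 132 (SD 0.614). Helz, an RNA helicase, gave 109, 96.9, 112 and 145 (SD 0.543). Asb4 gave 108, 101, 112 and 149 (SD 0.528), and Cotl1, a coactosin-like actin-binding protein, gave 147, 126, 134 and 202 (SD 0.526). Helz, Asb4 and Cotl1 shared a pattern of 1 high array, array 4, while Lasp1 was high on arrays 3 and 4. Next came Tceal8, Tpm2, 2410137M14Rik, Scn11a, Ptpa, Anks3, Mrps34, Adgre4, Bag6, Vmn1r93 and Kif15, with SDs of 0.445 to 0.498. Of these 15 genes 9 were highest on array 4 and 8 lowest on array 2, whereas of all detected genes 28.8% were highest on array 4 and 26.9% lowest on array 2. All 15 lay between 4.96 and 6.81, in the dim to middle range.

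The steadiest of the 500 brightest genes, besides those whose spread the normalization set to 0, were Lsm14a, of the stored mRNA granules (SD 0.0124), Obox1 (0.0127), the translation initiation factor Eif3i (0.013), Tmem109 (0.0181), Birc5 (0.0191) and Rsl24d1 (0.0269). Scaled to a common median, their SDs were 0.0345 to 0.0604, so the order among them depends on the normalization.

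Among the 1000 brightest genes, each array had some that stood apart from the other 3. The 5 genes taken for array 4 were all lower there: Gm16367 lay 0.66 below the mean of the others on the log2 scale (a difference of -0.66), Dbf4, the activator of the CDC7 replication kinase, at -0.64, Arf3 at -0.60, Acsl3 at -0.56 and Parp12 at -0.55. On array 2, Hmgcs1, of cholesterol synthesis, lay at 0.58, Zbed3 at 0.52, Nlrp14 at 0.51 and Eif4e1b at 0.50, with Scamp1 at -0.48. Array 1 had Trp53inp1 at 0.53 and Cdv3, Adss, Sfr1 and Ube2d2a at -0.51 to -0.49. Array 3 had Cacna2d3 at 0.50, Gm16367 at 0.45, Rps2 at 0.41, and Tmprss11a and Tcl1b1 at 0.39. None of these differences reached 1 log2 unit.

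Probes of the same gene did not always give the same answer. Of 4777 genes with several probes, 1724 had all probes detected on all arrays and 958 had none detected on any. Of the 2907 with a probe detected on all arrays, 639 (22.0%) also had a probe detected on no array. An undetected probe has only a bound, so the gap is given as the fold of the detected probe over the lowest detected signal of each array. At Furin, a proprotein convertase, a probe with raw values of 1095, 1107, 1208 and 1158 stood beside another, not detected on any array, at 73.9 to 78.6, and the detected probe was at least 52.3-fold higher. The other genes named for such a pair were Pfdn4, Dab2, Ung, Fbxo34, Eef1d, Mtus1, Rpl37, Hsp90aa1 and Vldlr, with bounds of at least 30.9-fold to at least 51.5-fold. The chaperone gene Hsp90aa1 gave 9.36 by its detected probe, at least 31.9-fold above the bound of its undetected one. The choice of the brightest probe keeps such genes among the detected, and a gene with a single probe (11816 of 16593) has no such safeguard.

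Some bright signal has no gene name here. Of the 1719 probes with no single gene symbol, 706 were detected on all arrays, and 13 were among the 100 brightest probes. The brightest, ILMN_2516699, gave raw values of 2002, 1860, 2128 and 2092, rank 15 among probes, and ILMN_1221920 gave 1900, 1951, 1916 and 1946, rank 19. Lists of the brightest genes of these oocytes are to that extent incomplete.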

How the data were processed

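Per the labels' protocols, total RNA of GV oocytes (PicoPure isolation) was amplified by the Nugen method, biotin-labelled and hybridised to 1-colour Illumina arrays. The authors deposited raw intensity and a detection p-value per probe and array, and log2 normalized values, per the file headers. The deposited log2 values equalled a quantile normalization of log2 raw intensity over 8 arrays, without background correction, to within 4.97e-14. For that check alone the Cre-positive raw columns were read. The sources used here do not give scanner, software or genome build.

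On the 4 arrays, background was removed from raw intensity by limma's nec function (limma 3.58.1, R 4.3.3), which took its negative controls from the detection p-values. An offset of 16 was added before log2 and quantile normalization over these arrays. The offset compresses differences of dim probes. The platform annotation gave 1 symbol for 23978 of 25697 probes, and the other 1719 had none or several. By gene identifier 23962 probes matched the RefSeq table of GRCm38.p6, which changed 0 symbols. The brightest probe by mean stood for its gene. Detection was a p under 0.05. Promoter windows came from RefSeq, matched by gene identifier for 13335 of 16593 genes. The correction and normalization were tested on simulated data. Tables and figures were made with Python 3.11.15, pandas 2.3.3, numpy 2.4.6 and matplotlib 3.10.9.

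No groups were compared. Dixon's rule was applied to single arrays of genes detected on all arrays and is the sole test, without adjustment. An SD is over 4 arrays. The named genes were the 30 brightest, the 15 of largest SD, the 10 steadiest of the 500 brightest, and of each list the up to 4 brightest and 4 undetected members and those on 1 to 3 arrays. To these were added the 10 genes with the widest gap between a probe detected on all arrays and another detected on none, the 5 genes on either side of the detection line, 4 markers, and for each array the 5 genes of the 1000 brightest farthest from the other 3. Ago2, Ago3, Ccnb2 and the members named to complete a count of 6 or fewer were added after their values were seen. The 4 samples, the 33 lists and the rules were chosen with earlier results of these data known. Genes of a list that are not counted as measured are not analysed here. Alternatives were a detection p under 0.01, any probe of a gene, the mean over probes, no background correction, the deposited normalized values, an offset of 1, median scaling and leaving out each array.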

Additional observations from a re-analysis of the deposited data

Results flagged for a closer look

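Genes named in the text and detected on all 4 arrays were examined for an array that stood far from the other 3. The measure was the gap to the nearest array divided by the whole range of the 4. Named genes detected on fewer arrays, such as Cdkn1a, were not examined. Neither were the genes added after their values were seen, such as Ago3. Of the 176 named genes examined 6 (3.41%) passed the usual limit of Dixon's test, and of all 7837 genes detected on all arrays 393 did (5.01%). Chance passes about 5.0% of such groups. The rules that named Kif15 (large SD) and Parp12 and Ube2d2a (1 array far from the other 3) favour genes of this kind, so the share among named genes is not set against that rate.

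Rchy1 gave 11.32 on array 4 and 11.53 on each of the others, a ratio of 1.0, which is full because quantile normalization gave the 3 others the same value. Kif15, a spindle kinesin, gave 5.63 on array 4 against 4.68 to 4.82 (ratio 0.848). Parp12 gave 8.78 on array 4 against 9.29 to 9.36 (0.876), and Ube2d2a, a ubiquitin-conjugating enzyme, gave 9.32 on array 1 against 9.80 to 9.83 (0.947). Actr3 gave 8.82 on array 2 against 8.69 to 8.70 (0.943), and H3f3b gave 9.58 on array 2 against 9.46 to 9.47 (0.882). The differences of Actr3 and H3f3b are smaller than the median SD of all detected genes.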

How the results depend on the processing

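Detection counts kept within 1.5 times the stated values under the alternatives run for them. They were 7125 to 8024 genes on all arrays kept, and 5923 to 7937 on none. The mean over probes has no detection p of its own and was left out. No background correction, the deposited values, an offset of 1 and median scaling leave the detection p unchanged. They can only change which probe is brightest, so their near-equal counts were fixed in advance and show no stability. A detection p under 0.01 gave 7125 genes on all arrays and 7937 on none. The median SD of detected genes (0.136) was 0.0749 without background correction, 0.0734 in the deposited normalized values, 0.179 with an offset of 1, 0.118 with the mean over probes, and 0.122 to 0.131 without each array in turn. The median Pearson correlation over probes (0.9919) was 0.9805 with an offset of 1 and 0.9917 to 0.9927 without each array. The median signal over all lists (6.28) was 7.13 without background correction, 7.10 in the deposited values, 5.97 with an offset of 1, 6.02 with the mean over probes, and 6.25 to 6.32 without each array. The share of the 100 brightest genes (11.8%) was 6.12% without background correction and 6.05% in the deposited values, which keep the background in the sum. The 30 brightest genes were the same 30 without background correction, in the deposited values, with an offset of 1, with median scaling and without each array, and 17 of them remained with the mean over probes. The order was not recomputed for the alternatives of detection. No paired analysis was possible because no groups were compared. Precision is limited by 4 arrays of unstated origin and, for genes near the floor, by signal over background. Signal does not give transcript abundance across genes, and a missing detection call does not show a missing transcript.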
